A study of Mus musculus with 6 samples.

Results

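The genes described here are 40 mouse genes of DNA damage signalling and repair, chosen by symbol for what their proteins do: checkpoint kinases and their mediators, homologous recombination, the Fanconi anaemia pathway, end joining and mismatch repair. The choice was made with earlier results of these data known. All 40 were found among the 25067 rows of the series. RNA was sequenced from colonic organoids, crypt epithelium grown in culture as small 3-dimensional structures, in 6 libraries. All 6 libraries came from C57BL/6 mice, 8 weeks old, homozygous for floxed alleles (f/f) of Prkci and Prkcz, the atypical protein kinase C (aPKC) genes, and carrying Villin-CreERT2, a tamoxifen-dependent Cre recombinase driven by the Villin promoter, which is active in intestinal epithelium. One group of 3 libraries was treated for 3 days with 4-hydroxytamoxifen (4-OHT), which activates the Cre, and the other 3 with vehicle (ethanol). The vehicle libraries are also described as wild type in the labels, although they carry the same floxed alleles and Cre. No library treated with 4-OHT without Cre or without the floxed alleles was analysed here, so loss of aPKC, Cre activity and 4-OHT itself cannot be told apart. How many mice or cultures lie behind the 3 libraries of a group is not stated, so the p-values measure the spread between these libraries, which may be technical.

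Cells answer DNA breaks and stalled replication forks through the kinases ATM and ATR, which activate CHK2 and CHK1 and slow the cell cycle. In homologous recombination the broken ends are resected, the single strands are readied with the help of BRCA2, and the break is copied from the sister chromatid, which is available only after replication. Non-homologous end joining instead ligates the ends directly and works throughout the cell cycle, and mismatch repair removes errors left by the replication machinery. Many recombination genes are transcribed together with the replication genes as cells enter S phase, and the dividing crypt cells of the colon express them most.

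The deposited values are normalized counts, reads per gene divided by 1 factor per library. Differences are log2 fold changes of 4-OHT against vehicle on the log2(normalized count + 1) scale with standard errors (SE), and a gene was called where the limma adjusted p-value was below 0.05. The libraries held 15804709 to 26957612 reads. Prkcz had 880, 904 and 954 normalized counts in the vehicle libraries and 287, 265 and 290 in the 4-OHT libraries, a log2 fold change of -1.70 ± 0.08 (SE, adjusted p = 3.2e-12 by limma). Prkci went from 3603, 3526 and 3430 to 2869, 3106 and 3089, a log2 fold change of -0.22 ± 0.05 (SE, adjusted p = 8.1e-04 by limma), and the position of the reads relative to the floxed exons was not analysed here. Defining epithelial markers such as Epcam and Cdx2 were high in every library, and the 12 colonic epithelium markers summed to 16488 to 17035 RPM (reads per library, scaled to a common total) in vehicle and 20816 to 21985 in 4-OHT libraries. Among the 4-OHT libraries, replicate 1 stood apart from replicates 2 and 3 on the second principal component (-26.8 against 10.5 and 10.9, 14.1% of the variance). The 5 plasma cell markers were all at 0 in the vehicle libraries and summed to 0.0519, 10.4 and 3.58 RPM in 4-OHT replicates 1, 2 and 3, and the 8 smooth muscle markers to 0.245 to 0.759 in vehicle and 0.727, 4.14 and 9.88 in 4-OHT libraries. The 8 immune markers summed to at most 3.29 and the 6 vessel markers to at most 4.93 RPM in any library, and the 8 fibroblast markers to 6.77 to 8.63 in vehicle and 9.65, 9.65 and 23.0 in 4-OHT libraries. The 10 Paneth and ileal markers summed to 70.3 to 88.5 in vehicle and 83.1, 121 and 120.1 in 4-OHT libraries, most of it from Mmp7, Ang4 and Lyz1. Within that list the Paneth defensin Defa24 had 1, 6 and 3 reads in vehicle and 4, 145 and 176 in 4-OHT replicates 1, 2 and 3, and the ileal Fabp6 2, 3 and 2 against 4, 120 and 34. Their part in the results below was not tested, and counts are therefore also given with 4-OHT replicate 1 as the only 4-OHT library.

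The repair genes were lower in 4-OHT organoids as a group. Of the 40 genes, 35 were called lower and 0 higher by limma, where 21.0% of the 13210 rows tested were called lower and 22.7% higher. By edgeR and by DESeq2 on recovered reads 0 were likewise higher, quantile normalization called 1 higher (Lig4), and at an unadjusted p under 0.05 limma had 1 higher, Lig4. The median log2 fold change was -0.68, against -0.005 over all rows tested, and the genes ran from -1.19 for Brca2 to 0.20 for Xrcc4. Because the 40 genes were chosen with earlier results of these data known, these shares are not independent of that choice. Of 77 other tested genes of these pathways, 39 were called lower and 5 higher, with a median of -0.28. In 27 of the 40 the fall was larger than 0.5 on the log2 scale, which 7.51% of all rows reached. In 35 of the 40 all 3 4-OHT libraries lay below all 3 vehicle libraries, an arrangement that 25.3% of all rows had. With 4-OHT replicate 1 as the only 4-OHT library, 31 of the 40 were called lower, against 13.0% of all rows in that fit. There the spread comes from the 3 vehicle libraries alone, and the lone 4-OHT library is assumed to vary as they do. Since RNA was measured in bulk, fewer cells that express a gene and less RNA per cell cannot be told apart. The 5 genes that were not called were Xrcc5, Xrcc4 and Lig4 of end joining, Rbbp8 of end resection and Fancb of the Fanconi core complex.

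**Figure D1:**
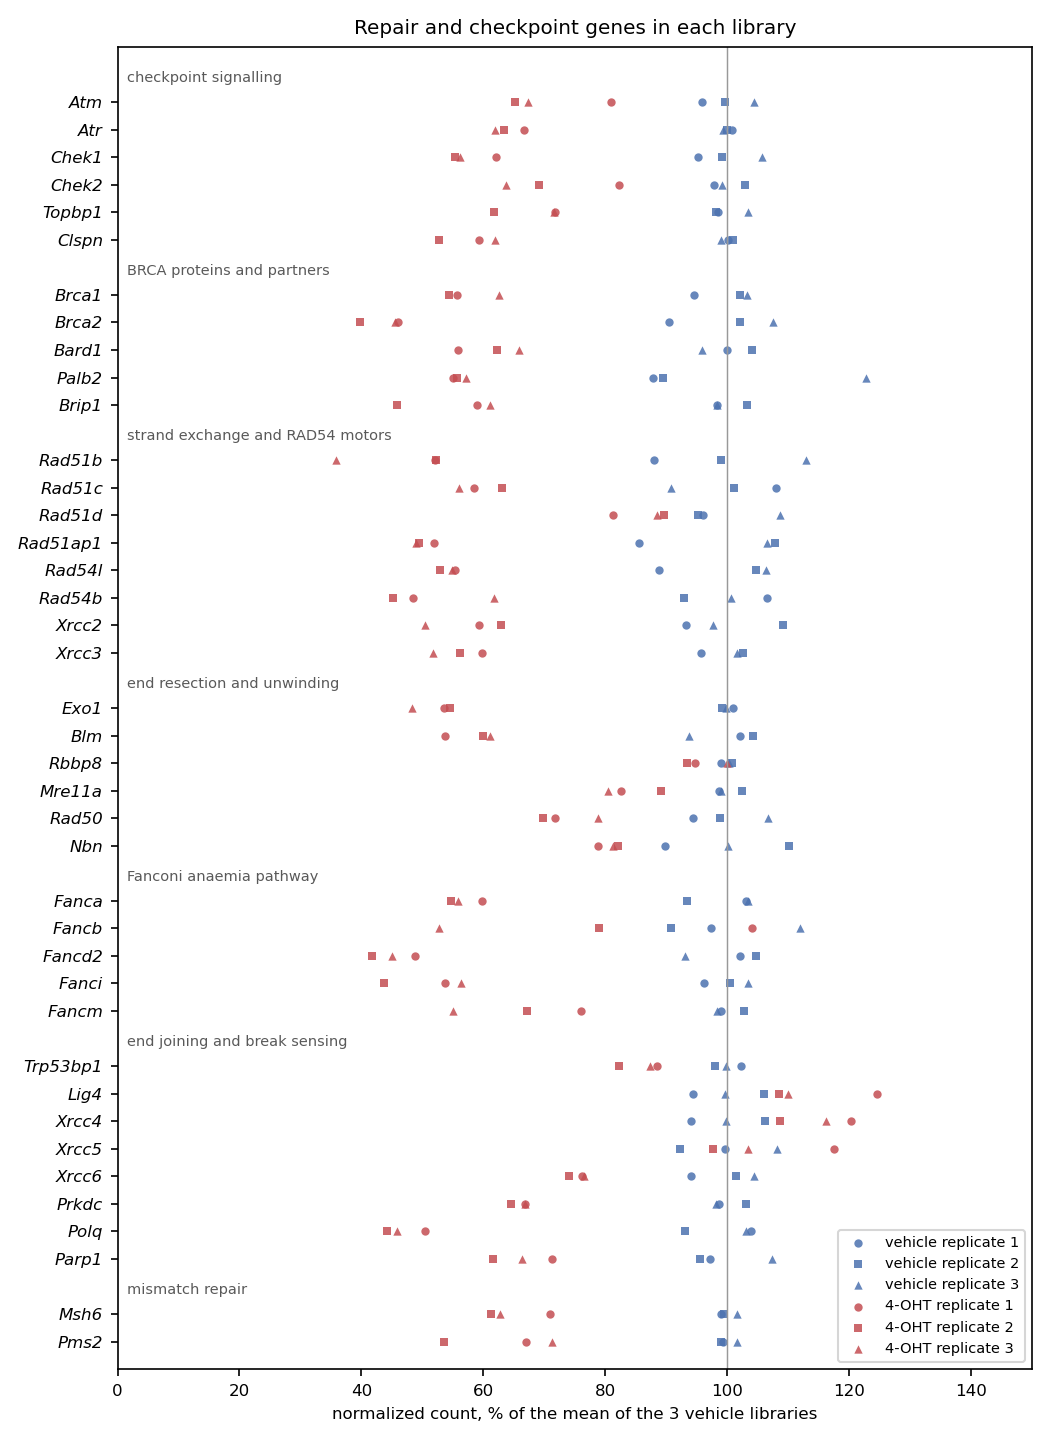
Normalized count of each of the 40 genes in each library, as a percentage of the mean of the 3 vehicle libraries (x axis), with the genes on the y axis grouped by role. Blue points are vehicle and red points 4-OHT libraries, with circles, squares and triangles for replicates 1, 2 and 3. In 35 genes all red points lie left of all blue points, and in Lig4 and Xrcc4 they lie right of them.

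The genes were expressed at very different levels before any change. Per kilobase of transcript, the vehicle mean ran from 666 normalized counts for Parp1 to 30.4 for Rad51c, a 21.9-fold range. The break sensor Parp1 (636 to 714 over the 3 vehicle libraries), the checkpoint scaffold Topbp1 (519 to 547) and the mismatch recognition subunit Msh6 (407 to 418) stood at the top in separate ranges. At the bottom Rad51c (27.6 to 32.9), Fancm (30.1 to 31.4) and Brca2 (31.8 to 37.8) could not all be ordered, since the range of Rad51c overlapped both others. Genes at either end of this order fell: by the log2 fold change, Parp1 was at 66.4% and Brca2 at 44.0% of vehicle.

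Promoter sequences are shown for the gene with the smallest adjusted p-value among those that fell in each of 4 role groups, so that the motif matches can be read in place. They are the 250 bases before the annotated start in RefSeq (mouse build GRCm38.p6, not the build named for the deposited counts), 5′ to 3′ in the direction of the gene: Clspn at chr4:126556730-126556979 on the plus strand, Brca2 at chr5:150522371-150522620 on the plus strand, Rad54l at chr4:116123691-116123940 on the minus strand and Polq at chr16:37011536-37011785 on the plus strand. Capitals mark matches to the motifs searched.
Clspn: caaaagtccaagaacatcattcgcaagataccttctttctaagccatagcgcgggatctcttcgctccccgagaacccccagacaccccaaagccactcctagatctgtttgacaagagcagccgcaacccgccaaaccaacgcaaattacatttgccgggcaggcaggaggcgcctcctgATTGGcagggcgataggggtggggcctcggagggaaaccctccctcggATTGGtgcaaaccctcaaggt
Brca2: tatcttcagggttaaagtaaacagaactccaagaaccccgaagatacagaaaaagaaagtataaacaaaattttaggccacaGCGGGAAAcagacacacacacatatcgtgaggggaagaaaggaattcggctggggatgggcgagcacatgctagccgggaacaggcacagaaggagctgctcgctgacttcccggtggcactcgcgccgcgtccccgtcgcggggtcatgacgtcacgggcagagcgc
Rad54l: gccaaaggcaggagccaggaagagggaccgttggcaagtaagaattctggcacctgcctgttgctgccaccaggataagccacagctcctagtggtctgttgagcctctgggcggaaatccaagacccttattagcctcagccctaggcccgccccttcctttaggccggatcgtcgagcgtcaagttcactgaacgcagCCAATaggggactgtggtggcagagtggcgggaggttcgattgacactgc
Polq: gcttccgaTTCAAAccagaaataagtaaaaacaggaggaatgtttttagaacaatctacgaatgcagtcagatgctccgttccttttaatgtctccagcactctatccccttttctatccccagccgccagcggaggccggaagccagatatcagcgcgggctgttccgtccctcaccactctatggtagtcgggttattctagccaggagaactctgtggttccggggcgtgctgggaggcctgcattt
The motifs, searched on both strands, were those of E2F factors, which drive S phase genes (TTTCCCGC and TTTGGCGC), the cell cycle homology region (TTTGAA and TTCGAA, the latter being its own reverse complement) and the CCAAT box (CCAAT), and none of them contains another. Clspn holds CCAAT boxes on the other strand beginning 69 and 21 bases before the start, Rad54l holds one beginning 50 bases before it, Brca2 holds an E2F motif 168 bases before it, and Polq a cell cycle homology match 242 bases before it.

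A promoter window was matched for 31 of the 40 genes, with none for Rad51d, Rad54b, Xrcc2, Exo1, Rbbp8, Rad50, Nbn, Fancd2 and Prkdc. An E2F motif was found in 4 of the 31 windows (Brca2, Bard1, Chek2 and Xrcc6), or 12.9%, against 2.61% of the windows of 10059 genes tested and 1.35% of all 27025 windows. CCAAT boxes were in 17 of the 31 (54.8%), against 36.9% of the genes tested and 34.5% of all windows. The cell cycle homology motif was in 3 of the 31 (Atr, Bard1 and Polq), or 9.68%, against 12.3% and 17.4%. Of the 31 genes with a window, 27 had fallen and 4 were not called. All 4 genes with an E2F motif and all 3 with a cell cycle homology motif were among the 27. CCAAT boxes were in 15 of the 27 and in 2 of the 4. With so few uncalled genes, these counts cannot show whether a motif goes with the fall. These matches describe letters in these windows and were not tested.

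The 6 checkpoint genes all fell, with a median log2 fold change of -0.60. Clspn, the adaptor through which ATR reaches CHK1, had 967, 975 and 956 normalized counts in vehicle replicates 1, 2 and 3 and 573, 509 and 599 in 4-OHT replicates 1, 2 and 3. Its log2 fold change was -0.79 ± 0.07 (SE, adjusted p = 2.7e-08 by limma), and the vehicle libraries differed by far less than the groups. Topbp1, which activates ATR, went from 2718, 2710 and 2856 to 1984, 1706 and 1977, a log2 fold change of -0.55 ± 0.06 (SE, adjusted p = 2.1e-07 by limma). The replication stress kinase Atr went from 722, 716 and 712 to 478, 454 and 444, a log2 fold change of -0.64 ± 0.07 (SE, adjusted p = 3.7e-07 by limma). In each of these 3 genes the groups did not overlap. Both kinase pairs fell: Chek1, the kinase downstream of ATR, had a log2 fold change of -0.79 (SE 0.10), and the break kinase Atm and its target Chek2 had one of -0.49 each (SE 0.09 each). Atm and Chek2 were higher in 4-OHT replicate 1 (494 and 465) than in the other two 4-OHT libraries (398 and 411 for Atm, 391 and 360 for Chek2), and still below every vehicle library.

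The 5 BRCA genes all fell, with a median log2 fold change of -0.82. Brca2, which acts on resected DNA, had 341, 385 and 406 normalized counts in vehicle and 174, 150 and 172 in 4-OHT libraries. This was the lowest log2 fold change of the 40 genes, -1.19 ± 0.11 (SE, adjusted p = 3.1e-08 by limma), although its interval (-1.41 to -0.96) overlapped those of several others, Fancd2 and Polq included. Brca1, the ubiquitin ligase that promotes resection, went from 703, 759 and 768 to 413, 404 and 464, a log2 fold change of -0.80 ± 0.08 (SE, adjusted p = 7.2e-08 by limma). The BRCA1-bound helicase Brip1 went from 313, 329 and 314 to 188, 146 and 195, a log2 fold change of -0.86 ± 0.12 (SE, adjusted p = 5.0e-06 by limma). Bard1, the obligate partner of BRCA1, fell by 0.71 and Palb2, which joins BRCA1 to BRCA2, by 0.82 on the log2 scale. Palb2 had the widest vehicle spread of the group, with replicate 3 at 288 and the other two at 206 and 210, and its 4-OHT libraries lay between 129 and 134.

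Among the genes of strand exchange (Rad51b, Rad51c, Rad51d, Xrcc2, Xrcc3 and Rad51ap1) and the RAD54 motor proteins, which move along DNA during that exchange, 8 of 8 fell, with a median log2 fold change of -0.86. Rad54l had 563, 664 and 674 normalized counts in vehicle and 351, 335 and 347 in 4-OHT libraries, a log2 fold change of -0.87 ± 0.08 (SE, adjusted p = 7.2e-08 by limma). Rad51ap1, a stimulator of strand pairing, went from 330, 416 and 412 to 200.4, 191 and 189, a log2 fold change of -0.99 ± 0.11 (SE, adjusted p = 3.1e-07 by limma). Xrcc3, which pairs with RAD51C, went from 370, 397 and 393 to 231, 218 and 200.4, a log2 fold change of -0.84 ± 0.10 (SE, adjusted p = 6.8e-07 by limma). The 4-OHT libraries of these 3 genes lay close together and well below the vehicle libraries. Rad51b (-1.10, SE 0.20), Rad54b (-0.95, SE 0.14), Xrcc2 (-0.79, SE 0.14) and Rad51c (-0.75, SE 0.16) had larger errors and lower counts. Of the exon bases of Rad54b, 39.2% are shared with other annotated genes (Fsbp on the same strand and Gm11832 on the opposite one), so its reads are uncertain. The smallest change was in Rad51d, the paralogue that binds XRCC2, at -0.21 ± 0.08 (SE, adjusted p = 0.034 by limma), a call that was lost in 6 of 16 other fits.

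End resection divided by gene. Exo1, the exonuclease of long-range resection, had 515, 506 and 508 normalized counts in vehicle and 273, 278 and 246 in 4-OHT libraries, a log2 fold change of -0.94 ± 0.09 (SE, adjusted p = 3.6e-08 by limma). The helicase Blm, which unwinds DNA for resection and dissolves recombination intermediates, went from 578, 589 and 530 to 304, 339 and 346, a log2 fold change of -0.78 ± 0.08 (SE, adjusted p = 3.2e-07 by limma). The MRN complex that starts resection fell less: Rad50 went from 1468, 1538 and 1658 to 1116, 1086 and 1225, a log2 fold change of -0.44 ± 0.06 (SE, adjusted p = 7.6e-06 by limma). Its nuclease Mre11a had a log2 fold change of -0.25 (SE 0.07) and its ATM-recruiting subunit Nbn one of -0.30 (SE 0.09), which was not called without vehicle replicate 2 (-0.23, adjusted p = 0.070 by limma). Rbbp8, which encodes CtIP, the cofactor that switches the MRN nuclease on, was not called. It had 574, 584 and 581 in vehicle and 549, 541 and 579 in 4-OHT libraries, which overlapped, with a log2 fold change of -0.06, a 95% interval from -0.21 to 0.09 and a limma adjusted p of 0.53. The median of these 6 genes was -0.37, and 5 of the 6 were called lower.

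Of 5 Fanconi anaemia genes, which repair crosslinks between DNA strands, 4 fell, and the median log2 fold change was -0.82. Fancd2 and Fanci encode the pair that is ubiquitinated at a crosslink. Fancd2 had 457, 469 and 416 normalized counts in vehicle and 218, 187 and 201.5 in 4-OHT libraries, a log2 fold change of -1.14 ± 0.10 (SE, adjusted p = 1.4e-08 by limma). Fanci went from 316, 331 and 340 to 177, 144 and 186, a log2 fold change of -0.97 ± 0.11 (SE, adjusted p = 8.2e-07 by limma), with 13.4% of its exon bases shared with other genes. Fanca, of the core complex that adds the ubiquitin, went from 810, 733 and 812 to 469, 429 and 438, a log2 fold change of -0.82 ± 0.07 (SE, adjusted p = 3.1e-08 by limma). None of these 3 overlapped between the groups. The fork remodelling translocase Fancm had a log2 fold change of -0.61 (SE 0.12). Fancb, of the core complex, was not called (-0.39 ± 0.20, SE, adjusted p = 0.12 by limma): its vehicle libraries had 107, 100.02 and 123 and its 4-OHT libraries 115, 87.1 and 58.1, the widest spread of the 40 genes (a coefficient of variation of 32.7% in 4-OHT). Without 4-OHT replicate 1 Fancb was called lower at -0.62, and with that library alone its difference was 0.06.

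The end joining and break sensing genes were the most divided, with 5 of 8 called lower and a median log2 fold change of -0.31. Polq, the polymerase of alternative, microhomology-based joining, had 420, 376 and 416 normalized counts in vehicle and 204, 178 and 186 in 4-OHT libraries, a log2 fold change of -1.09 ± 0.10 (SE, adjusted p = 3.3e-08 by limma). Parp1, which marks breaks with poly(ADP-ribose), went from 2504, 2462 and 2766 to 1837, 1588 and 1711, a log2 fold change of -0.59 ± 0.06 (SE, adjusted p = 1.3e-07 by limma). Prkdc, the catalytic subunit of DNA-PK, went from 724, 755 and 720 to 490, 474 and 491, a log2 fold change of -0.60 ± 0.07 (SE, adjusted p = 7.4e-07 by limma). All 3 were separate between the groups. Trp53bp1, which shields ends from resection, had a log2 fold change of -0.22 (SE 0.06), with 22.1% of its exon bases shared with other genes.

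The Ku genes did not move together, whereas the ligation genes Lig4 and Xrcc4 had similar changes and neither was called. The values of these genes are given although they were singled out after the values were seen. Xrcc6, which encodes KU70, had 839, 904 and 931 normalized counts in vehicle and 679, 660 and 682 in 4-OHT libraries, a log2 fold change of -0.40 ± 0.07 (SE, adjusted p = 4.5e-05 by limma). Its partner Xrcc5, which encodes KU80, had 807, 746 and 875 in vehicle and 952, 791 and 838 in 4-OHT libraries, which overlapped, with an interval from -0.07 to 0.24 (limma adjusted p = 0.38). One Ku gene was therefore called lower and the other was not called. The ligase Lig4 had 315, 355 and 333 in vehicle and 416, 363 and 368 in 4-OHT libraries, a log2 fold change of 0.19 ± 0.09 (SE, adjusted p = 0.095 by limma). Xrcc4, which stabilises that ligase, had 138, 156 and 146 against 177, 160 and 171, a log2 fold change of 0.20 ± 0.12 (SE, adjusted p = 0.20 by limma). All 3 4-OHT libraries lay above the vehicle libraries in both, as in 3535 of the 13210 rows tested, without passing the threshold. Under quantile normalization Lig4 passed it (0.25, adjusted p = 0.032 by limma).

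Both mismatch repair genes fell. Msh6, which recognises mismatches, had 1731, 1741 and 1777 normalized counts in vehicle and 1240, 1073 and 1097 in 4-OHT libraries, a log2 fold change of -0.62 ± 0.06 (SE, adjusted p = 6.4e-08 by limma). Pms2, a nuclease that acts after recognition, went from 256, 255 and 261 to 173, 138 and 183, a log2 fold change of -0.65 ± 0.12 (SE, adjusted p = 1.7e-04 by limma). The vehicle libraries of both genes lay within a narrow range, and no 4-OHT library reached it.

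**Figure D2:**
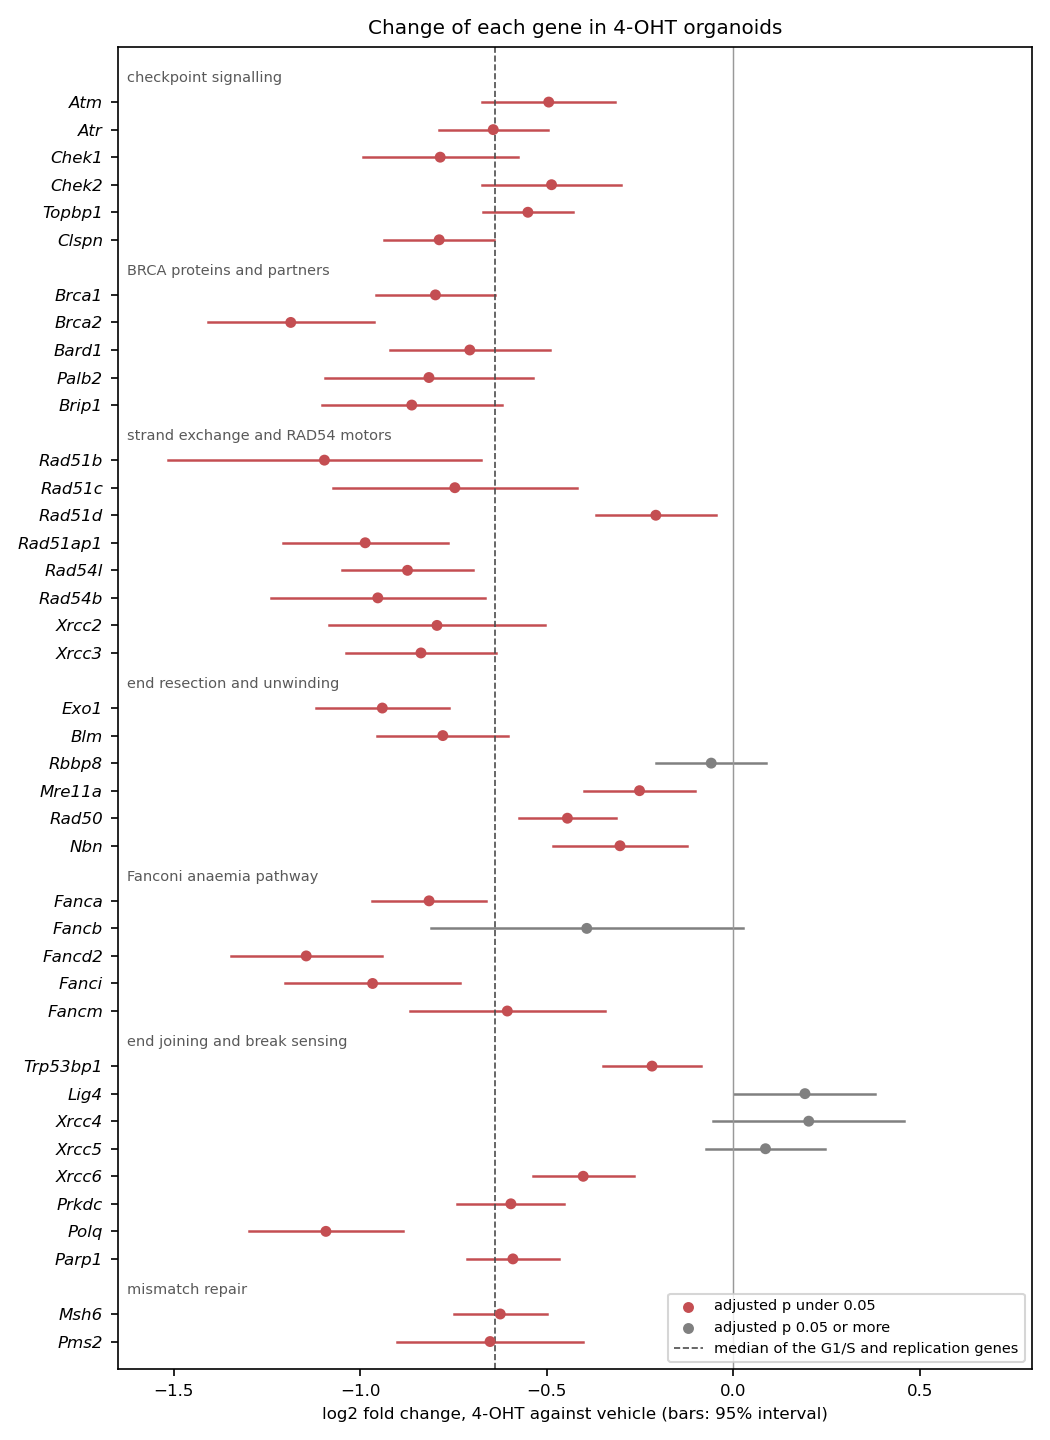
Log2 fold change of each of the 40 genes, 4-OHT against vehicle (x axis), with 95% intervals as bars and genes grouped by role on the y axis. Red marks an adjusted p-value below 0.05 and grey the 5 genes that were not called, and the dashed line is the median of 25 G1/S and replication genes (-0.64).

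Proteins that work as a pair were also set against each other as the ratio of their normalized counts within a library, which cancels the library's scaling. The changes in log2 ratio, the overlap and the test used log2(normalized count + 1), where the scaling cancels only nearly. The 14 pairs were chosen with the values known, and an exact permutation test of 3 against 3 libraries cannot go below p = 0.1 (two-sided), or 0.2 after adjustment over the 14 pairs. In 7 pairs the ratio did not overlap between the groups, each at that smallest p, and in the other 7 it did. How often the ratio of any 2 genes separates the groups was not computed. Among the 13210 single rows tested, 3348 lay below and 3535 above without overlap, so separation is common in these data. The ratio of Prkdc to Xrcc5 was 0.897, 1.01 and 0.823 in vehicle and 0.515, 0.599 and 0.586 in 4-OHT libraries, a change of -0.68 in the log2 ratio. Xrcc6 to Xrcc5 went from 1.04, 1.21 and 1.06 to 0.713, 0.835 and 0.814, a change of -0.49. Blm to Rmi1, its partner in dissolving recombination intermediates, went from 1.89, 2.09 and 1.82 to 1.24, 1.23 and 1.31, a change of -0.62. Xrcc5, Rad51c, Rad50 and Nbn each enter 2 pairs, so the pairs are not independent. These are shifts of the first gene relative to its partner, and partners that are not among the 40 genes (Rmi1 and Atrip) are named for the pair. The remaining separate ratios changed by -0.59 for Xrcc2 to Rad51d, -0.37 for Brca2 to Palb2, -0.28 for Atr to Atrip and 0.24 for Rbbp8 to Nbn. Ratios that overlapped included Lig4 to Xrcc4 (2.28, 2.27 and 2.27 against 2.36, 2.27 and 2.15, a change of -0.01), Brca1 to Bard1 (-0.09), Xrcc3 to Rad51c (-0.09) and Fancd2 to Fanci (-0.18). The other overlapping pairs were Rad51b to Rad51c (-0.35), Mre11a to Rad50 (0.19) and Nbn to Rad50 (0.14).

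**Figure D3:**
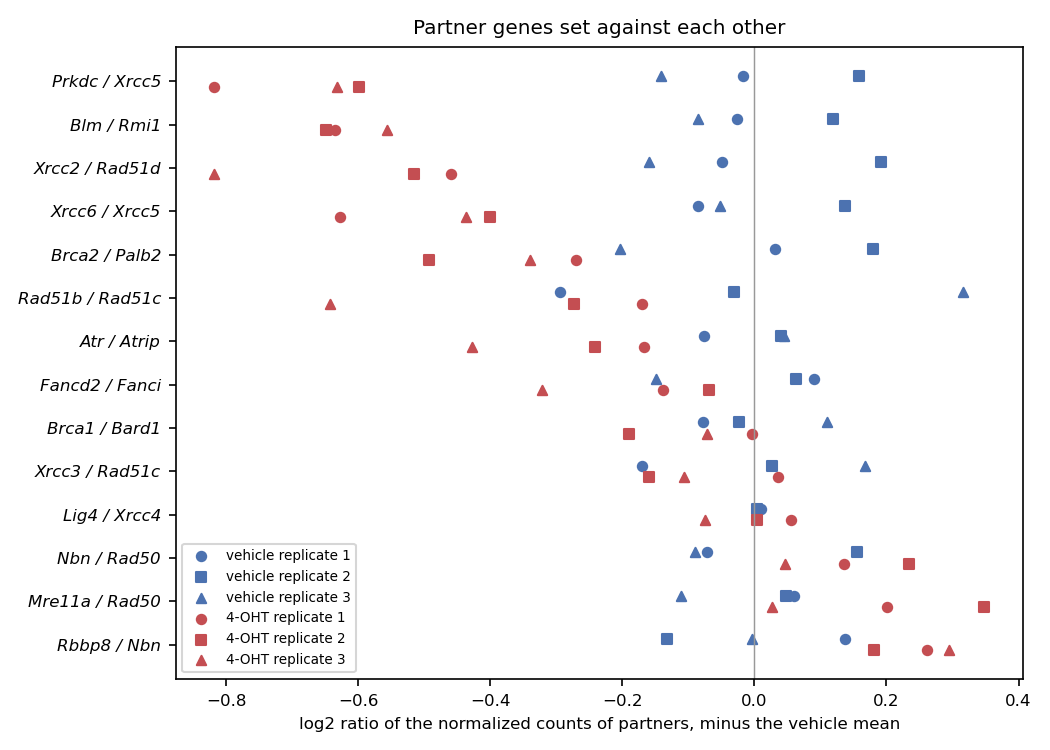
Log2 ratio of the normalized counts of 2 partner genes in each library, minus its vehicle mean (x axis), for 14 pairs (y axis) ordered by the change. Blue is vehicle and red 4-OHT, with a marker shape for each replicate number; in 7 pairs the red and blue points are separate.

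Other genes of the same pathways, 78 in all, were listed by role and are given whether or not they moved. Of the 77 that were tested, all but Dmc1, 39 were called lower (21.0% of all rows were), 5 higher (22.7% of all rows) and 33 not called, with a median log2 fold change of -0.28. The largest falls were in Timeless, a fork protection protein (-0.995 ± 0.09, SE, adjusted p = 6.5e-08 by limma), the helicase Recql4 (-0.99 ± 0.12, SE, adjusted p = 1.1e-06 by limma) and the Holliday junction resolvase Gen1 (-0.92 ± 0.12, SE, adjusted p = 2.2e-06 by limma). Timeless had 886, 890 and 983 normalized counts in vehicle and 512, 377 and 504 in 4-OHT libraries. The largest rises were in the break-responsive Parp3 (0.42 ± 0.08, SE, adjusted p = 3.5e-04 by limma), the recombination accessory factor Swi5 (0.28 ± 0.05, SE, adjusted p = 1.4e-04 by limma) and the end-cleaning Aptx (0.28 ± 0.10, SE, adjusted p = 0.031 by limma), the last of which lost its call in 4 of 16 other fits. By role, 9 of 16 other recombination genes, 9 of 14 checkpoint genes, 8 of 14 resection and resolution genes, 6 of 12 Fanconi genes, 2 of 3 mismatch repair genes and 5 of 18 end joining genes were called lower, the last a share of 27.8%, near the 21.0% of all rows. The end joining list had a median of -0.04, near that of all rows tested.

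Genes of proliferation and of the p53 response moved in the same libraries. All 25 G1/S and replication genes were called lower, with a median of -0.64, and their summed reads were 2284 to 2478 RPM in vehicle and 1360 to 1522 in 4-OHT libraries. All 20 G2/M and mitosis genes were called lower, with a median of -0.66 and sums of 2812 to 2954 against 1523 to 1716 RPM. The replicative helicase subunit Mcm2 had a log2 fold change of -0.64 (SE 0.06) and the sliding clamp Pcna one of -0.46 (SE 0.05). The proliferation marker Mki67 had -1.02 (SE 0.07) and the mitotic kinase Cdk1 -0.49 (SE 0.06). Of the 40 repair genes, 22 lay below the median of the G1/S genes. Averaged over its genes, the repair list lay 0.56, 0.67 and 0.64 below the vehicle mean on the log2 scale in 4-OHT replicates 1, 2 and 3, and the G1/S list 0.58, 0.69 and 0.64 below it. The order of the 4-OHT libraries was the same in both lists, with replicate 2 lowest and replicate 1 nearest to vehicle. The G2/M list (-0.63, -0.75 and -0.68) and the other genes of the pathways (-0.28, -0.34 and -0.30) had that order too. The p53 targets lay above the vehicle mean, by 0.54, 0.50 and 0.49 in 4-OHT replicates 1, 2 and 3. Replicate 1 was thus the highest 4-OHT library in every one of these lists, and among the p53 targets the farthest from vehicle. What lies behind the shared order was not tested. Of the 40 repair genes, 24 had their lowest 4-OHT value in replicate 2. The share of all rows with that minimum was not computed. Of 16 p53 target genes, 12 were called higher and 1 lower, with a median of 0.61, among them the cell cycle inhibitor Cdkn1a (0.63, SE 0.05) and the p53 ubiquitin ligase Mdm2 (0.54, SE 0.06). The part of proliferation and of the p53 response in the repair genes' change was not tested.

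**Figure D4:**
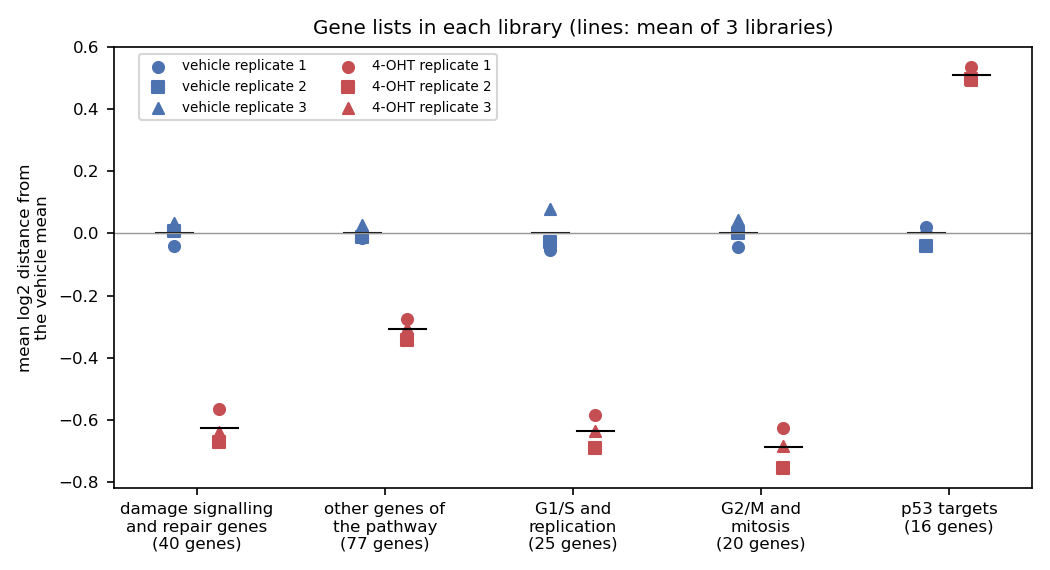
Mean over the genes of a list of the log2 distance from the vehicle mean (y axis), for each library, in 5 gene lists (x axis). Blue is vehicle and red 4-OHT, marker shapes give the replicate number and black lines the mean of 3 libraries; the repair genes sit at -0.56 to -0.67 in the 4-OHT libraries, next to the G1/S list at -0.58 to -0.69, and the p53 targets at 0.49 to 0.54.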

How the data were processed

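RNA from 6 libraries of colonic organoids was compared, 3 vehicle and 3 4-OHT, grouped by the sample labels. The deposited signal is a normalized count: the authors divided the reads of each gene by a size factor per library. The submitters' notes name STAR, DESeq2, GRCm39 and mm39, while the versions, the counting tool, its strand setting and the annotation are not given in the sources used here. Multiplying back by a size factor gave whole reads for 100% of the values of every library (tolerance 0.1), so reads were recovered, 15804709 to 26957612 per library. The members had 30 to 3821 reads in a library, and 3 reads were taken as the floor, which covers counting error only.

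The test was limma-trend, from limma 3.58.1 in R 4.3.3, on log2(normalized count + 1), over 13210 rows with a mean of at least 10, with Benjamini-Hochberg adjustment over all of them and a threshold of 0.05. Fold changes on this scale understate those of low genes. Intervals are 95%. On the recovered reads edgeR 4.0.16 (quasi-likelihood) called 2822 genes lower and 2958 higher, where limma called 2768 and 2997. DESeq2 1.42.0 on the recovered reads called fewer, 2497 lower and 2711 higher. Further alternatives were other pseudocounts, filters, scalings, the replicate block and libraries left out. Libraries of a group differed by 3.49 to 6.44 times the counting variance, so none is a copy. Deviations of libraries sharing a replicate number correlated at -0.007, 0.030 and -0.020, so the numbers were not taken to pair them.

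The 40 genes, their role groups and all lists were chosen with earlier results of these data known. All 40 are named. Values in every library are given for the 3 genes with the smallest adjusted p-value of each role group, and of the other pathway genes the 3 largest rises and falls are named. Transcript lengths and exon overlaps came from GENCODE vM21 on GRCm38, which is not the authors' build. Some genes of these pathways are not reported here.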

Additional observations from a re-analysis of the deposited data

How the results depend on the processing

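Of 640 values (40 genes under 16 alternatives), 627 kept their direction and their side of the threshold, 10 lost the call, 2 gained one and 1 reversed, and 31 of the 40 genes were called lower in every fit. The cause of these changes was not tested, other than that fits with fewer libraries have fewer samples. With only 4-OHT replicate 1 kept in its group, where the 3 vehicle libraries alone give the spread and the lone library is assumed to vary like them, 3569 genes changed over all rows tested (5765 with every library), 31 of the 40 were lower, Fancm, Nbn, Rad51d and Trp53bp1 lost their calls, and Fancb turned to 0.0616. Without 4-OHT replicate 1, Fancb was called lower at -0.62. Rad51d also lost its call under quantile normalization, under DESeq2 and without vehicle replicate 3, 4-OHT replicate 1 or 4-OHT replicate 3, and Nbn without vehicle replicate 2. Quantile normalization called 1 of the 40 higher, Lig4 at 0.25. Other pathway genes called higher numbered 5, but 3 under DESeq2, 3 with only 4-OHT replicate 1 kept, and 3 to 4 with each library left out in turn. With the replicate block 35 of the 40 were lower and 5637 genes changed, and it changed no call of the 40. Leaving out single libraries gave 34 to 35 genes lower and medians from -0.71 to -0.65.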
